A study of Homo sapiens with 4 samples.

Results

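The comparison described here is the last step of a time course, the library labelled 96 h of doxycycline minus the library labelled 48 h, taken over every probe set that carries exactly 1 gene symbol. There were 19937 such probe sets of 33297 on the array, and they stood for 19088 genes. Both libraries came from AB7, a single clone of the Burkitt's lymphoma line DG75, which is an established human cell line. Native BCL6 is disrupted in this clone (Bcl6-/-), and an HA-tagged BCL6 is placed under tetracycline control. Cells of both libraries grew in RPMI medium with 1 µg/ml doxycycline. The other libraries of the series, labelled 16 h with the same dose and 0 h without the agent, are not part of the difference. The 16 h level is printed for orientation, and the 0 h level for BCL6 alone. Each time has 1 library, so there is no replicate, no error and no test for any value below, and the words higher and lower describe these 2 libraries. No library kept without doxycycline until 96 h was analysed here, and time in culture and time on the agent cannot be told apart.

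Burkitt's lymphoma cells resemble germinal centre B cells, in which BCL6 acts as a transcriptional repressor that recruits corepressors to genes of activation, migration, the DNA damage response and interferon signalling. Interferons bind surface receptors that activate the kinases JAK1 and TYK2. Signals from these kinases lead to binding of transcription factors, among them STAT2 and IRF9, at the interferon-stimulated response element in promoters of antiviral genes. ATF4 is a transcription factor made when amino acids are scarce or the endoplasmic reticulum is stressed, and its targets make, import and charge amino acids.

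The title of the series names BCL6 targets as the purpose. The log2 intensity of BCL6 was 11.10 in the library labelled 0 h. It was 10.58, 10.25 and 10.50 in those labelled 16, 48 and 96 h. BCL6 was thus highest without doxycycline. The title calls its expression inducible, but the labels do not say whether doxycycline raises or lowers the transgene, so each library is called by its label. Between 48 and 96 h it was 0.24 higher on the log2 scale, or 1.18-fold, which placed it at rank 1026 from the highest difference. Among B cell markers, 10 of 12 were above the level used as a filter, and the median level of all 12 was 8.89 at 48 h and 9.08 at 96 h. MS4A1 (CD20) was below that filter, at 4.94 and 5.03, and so was CD24, at 3.35 and 3.39. Some T cell genes were above it, CD4 at 9.01 and 9.06 and CD3E at 7.95 and 7.92, while the medians of the marker lists of natural killer cells, monocytes, erythroid cells, and fibroblasts with epithelium were 4.23 to 4.69 at 48 h.

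Genes were compared where their mean level over the 48 and 96 h libraries was at or above the 40th percentile, 5.18, which left 11453. A difference of at least 1.5-fold, 0.585 on the log2 scale, was found for 64 genes that were higher at 96 h, 0.559% of those compared, and for 65 that were lower, 0.568%, which is 129 genes or 1.13% in all. At 1.3-fold the counts were 338 higher (2.95%) and 399 lower (3.48%), 6.43% in all. At 2-fold they were 10 (0.0873%) and 2 (0.0175%), 0.105% in all. The median difference of all genes compared was -0.03, the SD over genes was 0.21, and the central 95% of genes lay between -0.42 and 0.40. Above 0 lay 44.0% of the genes and below 0 lay 55.9%. These shares of all genes are the ones to set beside the counts of each list below. The lists were chosen with earlier results of these data known, so their counts only describe these libraries. The preceding step, 48 h against 16 h, gave 40 genes at least 1.5-fold higher (0.349%) and 85 lower (0.742%) over the same genes. It shares the 48 h library with the step described here, so that an error of that library enters both with opposite sign, and values of the 2 steps are only set side by side.

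Of the 129 genes past 1.5-fold, 49.6% were higher (exact binomial 95% interval 40.7 to 58.5%, covering counting alone). The interval takes the genes as independent, but DNM1P46 and LOC441734 had identical values, and independence of the others was not tested. Genes are not replicates of a time, so the interval does not measure the spread between libraries. The share of higher genes was 63.4% when both libraries were centred on their median and 61.5% after correction for the genomic span of the genes, both above the interval. Where a gene had several probe sets above the filter (349 genes), the SD of their differences had a median of 0.05 and a 95th percentile of 0.34. For LTB and PSMB8, with 3 probe sets each, the mean difference equalled that of the brightest. Probe sets that repeat each other can lower this median, and their number was not counted. In the authors' second table of the same libraries the differences were smaller, with a slope of 0.88 on those of the first and a correlation of 0.995 across genes, which are not independent replicates. All 129 genes had the same sign there, and 69 were past 1.5-fold.

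**Figure D1:**
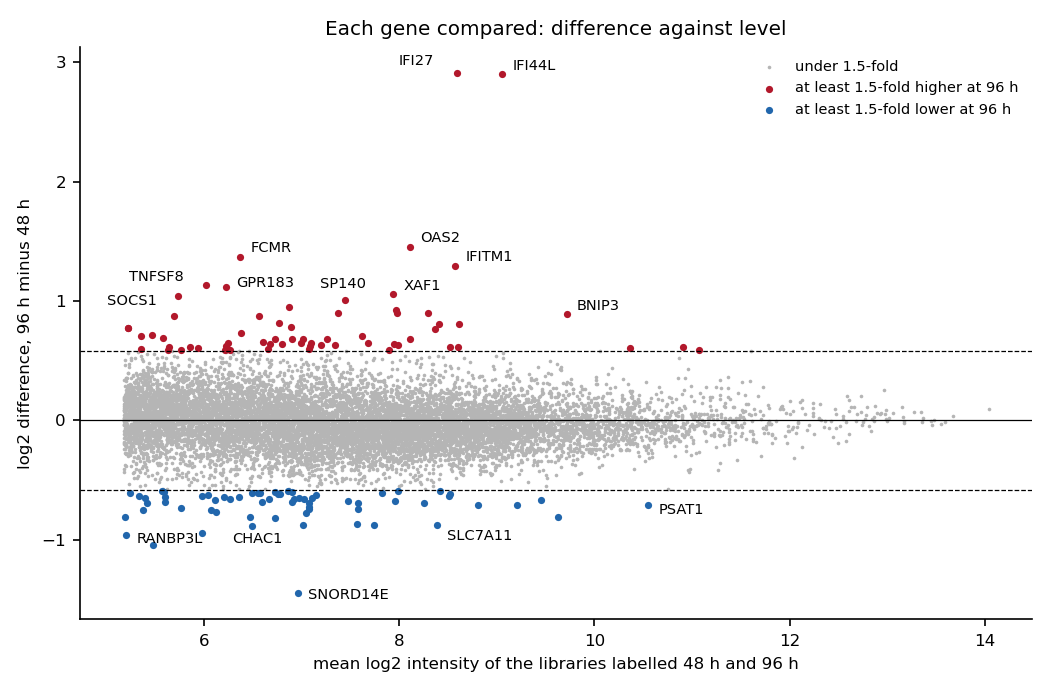
Log2 difference of each gene compared, 96 h minus 48 h, against its mean log2 intensity in the 2 libraries. The 64 red points and 65 blue points lie past the dashed lines at 1.5-fold, IFI27 and IFI44L stand alone near 2.9, and SNORD14E is the lowest point at -1.45.

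IFI27 and IFI44L, both induced by type I interferon, stood apart from every other gene compared. IFI27 was at 6.58 at 16 h, 7.14 at 48 h and 10.05 at 96 h, a difference of 2.91 or 7.52-fold between the last 2. IFI44L went through 6.65, 7.60 and 10.50, a difference of 2.90 or 7.46-fold. The next was OAS2, an oligoadenylate synthetase that activates RNase L against viral RNA, at 7.21, 7.39 and 8.84, or 2.74-fold. It was followed by FCMR, the Fc receptor for IgM, at 5.28, 5.69 and 7.06, or 2.59-fold. Of the 15 largest differences upward, 9 belonged to the interferon lists, as did 7 of the 10 genes that were at least 2-fold higher. The 2 interferon lists held 58 of the 11453 genes compared. They were chosen with earlier results of these data known, so these counts are a description and not independent support. In the second table XAF1 (0.99), SP140 (0.92), SOCS1 (0.79), TNFSF8 (0.91) and GPR183 (0.92) were under 2-fold. The remaining 6 of the 15 largest were genes expressed in lymphocytes, namely FCMR, TNFSF8, GPR183, PIM2, VPREB3 and CYSLTR1. TNFSF8, the ligand of CD30, was at 5.45 at 48 h and 6.59 at 96 h, and PIM2, a survival kinase of lymphoid cells, at 7.52 and 8.43. VPREB3, which associates with the precursor B cell receptor, was at 7.03, 6.92 and 7.82.

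The 2 genes that were at least 2-fold lower were the small nucleolar RNA SNORD14E, taken up with its family, and LOC100129420. The latter, an unnamed locus picked after its values were seen, was 2.06-fold lower. It was at 5.997 at 48 h and 4.95 at 96 h, the last below the filter value of 5.18. In the second table its difference was -0.78, under 2-fold. The lowest named gene outside the small RNAs was RANBP3L, related to a nuclear export factor, at 5.07, 5.68 and 4.72, or 1.95-fold lower at 96 h, with its last level below the filter value of 5.18. Next came PIGM, a mannosyltransferase of membrane anchor synthesis, at 6.74, 6.94 and 6.05 (1.84-fold lower). SLC7A11, the transporter that imports cystine in exchange for glutamate, was at 9.49, 8.82 and 7.95 (1.84-fold lower). TM6SF1, a lysosomal membrane protein, was at 8.29, 8.18 and 7.31, and ASS1, which makes argininosuccinate in arginine synthesis, at 9.94, 10.03 and 9.22. MAP1A, a microtubule-associated protein, was at 7.56, 6.88 and 6.07. In 5 of the 15 largest differences downward the gene was in the ATF4 list, and 2 were zinc finger genes, ZNF79 (-0.76, or -0.54 in the second table) and ZNF33A (-0.73). ZNF79 was at 5.75 at 48 h and 4.99 at 96 h, the last below the filter value. MCM9, a helicase of homologous recombination, was -0.74 by its brighter probe set and -0.53, under 1.5-fold, by the mean of its 2 probe sets.

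**Figure D2:**
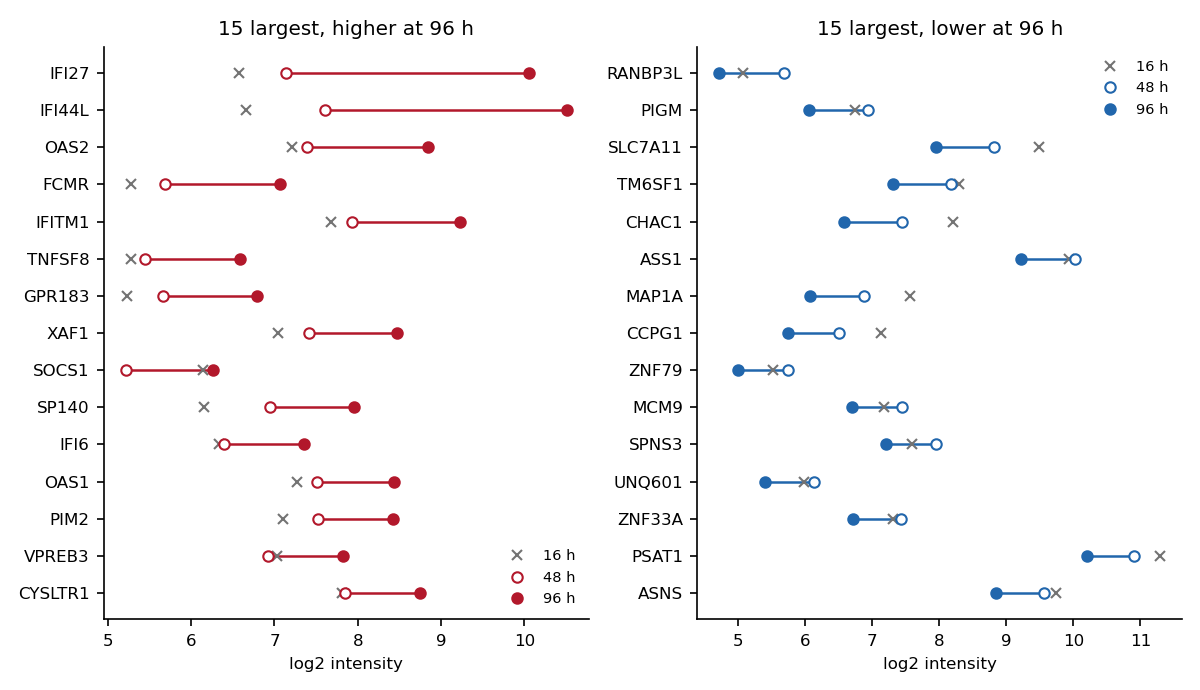
The 15 named genes with the largest difference in each direction, with the log2 intensity in the libraries labelled 16, 48 and 96 h as 3 points per gene. On the left IFI27 and IFI44L pass from 7.14 and 7.60 at 48 h to 10.05 and 10.50 at 96 h, and on the right SLC7A11, CHAC1 and PSAT1 are lower at each later time.

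Interferon-stimulated genes were higher at 96 h nearly throughout the list. Of 37 compared, 34 were above 0, 12 were at least 1.5-fold higher and none was 1.5-fold lower, against 0.559% and 0.568% of all genes. Their median difference was 0.46, against -0.03 for all genes, and it stayed between 0.41 and 0.50 under the other scalings and the second table. In the preceding step, which shares the 48 h library, the same list had a median of 0.24 with 3 genes at least 1.5-fold higher. IFITM1, a membrane protein that limits viral entry, was at 7.68, 7.93 and 9.23 (2.46-fold higher at 96 h). XAF1, which binds the caspase inhibitor XIAP, was at 7.05, 7.41 and 8.47 (2.08-fold). IFI6, a mitochondrial and endoplasmic reticulum protein, was at 6.33, 6.40 and 7.35. These genes differed little between 16 and 48 h compared with the later step. OAS1 was 0.93 higher and IFIT3, which binds other IFIT proteins on viral RNA, was 0.88 higher. The chromatin readers SP140 and SP110 were 1.01 and 0.61 higher. They are next to each other in the RefSeq gene order, as are IFI44L and IFI44 (0.80). Members under the threshold included IFIH1, a sensor of double-stranded RNA, at 6.24 and 6.79, and ISG15, the ubiquitin-like modifier, at 6.84 and 7.06. RTP4 was the lowest, at 6.38 and 6.07, followed by ISG20 (-0.08) and TRIM5 (-0.01).

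The promoters of 4 of these genes are shown because they carry the letters of the interferon-stimulated response element, searched on both strands as GAAA, any 2 bases and GAAA again. Each run holds 300 bases, 250 before and 50 from the gene start, from RefSeq on GRCh38.p14 and read along the gene's strand, and the capitals mark the matches. The windows are chr14:94110486-94110785 (plus strand) for IFI27, chr1:78620198-78620497 (plus) for IFI44L, chr11:313790-314089 (plus) for IFITM1 and chr1:27672143-27672442 (minus) for IFI6.
IFI27: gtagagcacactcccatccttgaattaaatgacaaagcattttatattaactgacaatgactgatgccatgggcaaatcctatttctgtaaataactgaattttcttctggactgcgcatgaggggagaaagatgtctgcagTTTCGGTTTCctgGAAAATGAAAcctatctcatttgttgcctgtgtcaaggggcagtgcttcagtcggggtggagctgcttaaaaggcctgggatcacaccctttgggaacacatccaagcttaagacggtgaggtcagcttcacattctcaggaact
IFI44L: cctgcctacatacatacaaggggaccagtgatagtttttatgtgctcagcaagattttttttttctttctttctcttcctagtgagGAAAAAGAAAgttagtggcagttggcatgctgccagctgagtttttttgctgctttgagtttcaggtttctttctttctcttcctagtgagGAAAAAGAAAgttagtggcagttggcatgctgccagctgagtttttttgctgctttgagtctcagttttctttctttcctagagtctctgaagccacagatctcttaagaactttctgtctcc
IFITM1: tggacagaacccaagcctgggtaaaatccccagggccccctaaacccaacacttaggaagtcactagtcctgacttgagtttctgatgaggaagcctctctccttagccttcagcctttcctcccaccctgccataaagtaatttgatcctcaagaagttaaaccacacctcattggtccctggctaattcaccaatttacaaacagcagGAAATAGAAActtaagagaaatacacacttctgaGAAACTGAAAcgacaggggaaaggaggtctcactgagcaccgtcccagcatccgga
IFI6: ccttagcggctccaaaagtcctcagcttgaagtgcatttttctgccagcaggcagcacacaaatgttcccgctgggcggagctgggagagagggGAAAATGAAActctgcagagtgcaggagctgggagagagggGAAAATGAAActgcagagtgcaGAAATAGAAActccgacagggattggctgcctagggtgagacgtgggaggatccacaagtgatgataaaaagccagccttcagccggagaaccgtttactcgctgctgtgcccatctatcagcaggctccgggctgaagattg

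The matches begin 108 and 95 bases before the start of IFI27, 164 and 73 before that of IFI44L, 40 and 6 before that of IFITM1, and 156, 115 and 93 before that of IFI6. Of the genes at least 1.5-fold higher, 46 had a promoter in the RefSeq table, and 9 of these, 19.6%, held a match. They were IFI27, IFI44, IFI44L, IFI6, IFIT3, IFITM1, MAPK10, SOCS1 and ZFP36L1. None of 41 promoters of lower genes held one, against 2.54% of 8768 promoters of genes compared and 3.65% of all 27305. In the whole interferon-stimulated list 20 of 32 promoters held a match, and 6 of 11 among its members past 1.5-fold, XAF1 being one without these letters in the window. In the class I antigen presentation list, where no gene reached 1.5-fold, 8 of 12 promoters held it. A match is a string of letters and does not show binding. The motif was chosen after values were seen. Of the 9 higher genes with a match, all but MAPK10 and ZFP36L1 are in the 2 interferon lists. Their share is therefore not separate from the counts of those lists.

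Genes of interferon signalling itself were mixed. Of 21 compared, 3 were at least 1.5-fold higher, 16 were above 0, and the median difference was 0.11. The shares over all genes were 0.559% and 44%. SOCS1, the feedback inhibitor of the JAK kinases, was at 6.14 at 16 h, 5.22 at 48 h and 6.26 at 96 h, a difference of 1.04 in the last step to a level near that of 16 h. IRF7, which amplifies type I interferon production, was at 6.80, 6.68 and 7.36 (1.61-fold). The transcription factors IRF9 and STAT2 were under the threshold, at 0.43 and 0.40. The kinase JAK2 was the lowest, at 6.36 and 5.99, and the receptor chain IFNAR1 was -0.14. None of 20 nucleic acid sensing genes was past 1.5-fold, with 14 above 0 and a median of 0.15. The RNA helicase DHX58 was 0.47 higher there and the DNA sensor CGAS was -0.23.

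Antigen presentation genes stayed under the threshold. Over all genes 44% were above 0. In class I, 9 of 14 genes were above 0 and the median was 0.13, with the immunoproteasome subunit PSMB8 at 9.30 and 9.68 and B2M, the light chain of class I molecules, at 11.24 and 11.50. TAPBPL, a peptide editor, was lower at 7.28 and 6.79. In class II the median was 0.01 over 14 genes, with CD74, the invariant chain, at 10.76 and 11.11, HLA-DRA at 10.79 and 11.04 and the master regulator CIITA at 5.75 and 5.98. The same list had a median of 0.26 in the preceding step.

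Receptors that position B cells in lymphoid tissue were among the higher genes. In the list of chemokines and positioning receptors 3 of 15 were at least 1.5-fold higher, none was lower by as much, 11 were above 0 and the median was 0.23. Over all genes 0.559% were higher and 0.568% lower by as much, and 44% were above 0. GPR183, which guides B cells along oxysterols to the outer follicle, was at 5.23, 5.67 and 6.79 (2.17-fold). CCR7, the receptor that draws lymphocytes towards the T cell zone, was at 5.58, 6.50 and 7.28 (1.72-fold) and so was higher at each later time. CYSLTR1, a leukotriene receptor, was at 7.81, 7.85 and 8.74 (1.86-fold). CXCR4, the receptor of the germinal centre dark zone, was 0.43 higher and back near its 16 h level, at 11.21, 10.74 and 11.17. CCR6 was at 5.55 and 5.26, or -0.28, by the brightest of its 3 probe sets, but 0.14 higher by their mean. With the filter at the 60th percentile, which drops the dimmer members, the list median was 0.40.

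Among 27 activation and memory surface genes, FCMR and CD72 were past 1.5-fold, none was lower by as much, 18 were above 0 and the median was 0.11. Of all genes, 0.559% were higher by as much and 44% were above 0. CD72, an inhibitory coreceptor, was at 5.95, 6.39 and 7.07. CD83, an activation marker, was 0.44 higher, while the lymphotoxin genes LTB and LTA were lower, at -0.48 and -0.47. B cell receptor signalling genes had 20 of 26 above 0 with a median of 0.12 and none past the threshold. The nearest was LAPTM5, a lysosomal protein that lowers surface antigen receptor, at 9.99, 11.31 and 11.89, a difference of 0.58, and it was followed by the inhibitory coreceptor CD22 at 8.81 and 9.33. Of 25 transcription factors of the B lineage, 20 were above 0 with a median of 0.12, among them IKZF2 (0.54), RUNX3 (0.34) and the coactivator POU2AF1 (0.34).

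Of 27 genes reported elsewhere as repressed by BCL6, 4 were at least 1.5-fold higher, against 0.559% of all genes, among them IFITM1, GPR183 and IRF7. None was 1.5-fold lower, 21 were above 0, against 44% of all genes, and the median was 0.23, while BCL6 itself was 0.24 higher. IFITM1 and IRF7 are also in the interferon lists. Members on the other side included the checkpoint kinase ATR (-0.23) and the cell cycle inhibitor CDKN1A (-0.26). The 16 corepressor genes had a median of 0.05, with the histone deacetylase HDAC7 at 7.10 and 7.56 and TBL1X, a subunit of the NCOR complex, at 7.40 and 7.03. In the germinal centre list 1 of 25 genes, NUGGC, which encodes a GTPase of the nucleus, was past 1.5-fold, at 7.26, 6.67 and 7.32, though in the second table it was 0.57 higher, just under the threshold. RGS13, a regulator of chemokine receptor signalling, was at 10.30, 9.77 and 10.35, just under the threshold. SERPINA9 was lower at 8.29 and 7.75. Plasma cell genes had a median of 0.03 over 12, with XBP1 at 9.81 and 9.71.

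**Figure D3:**
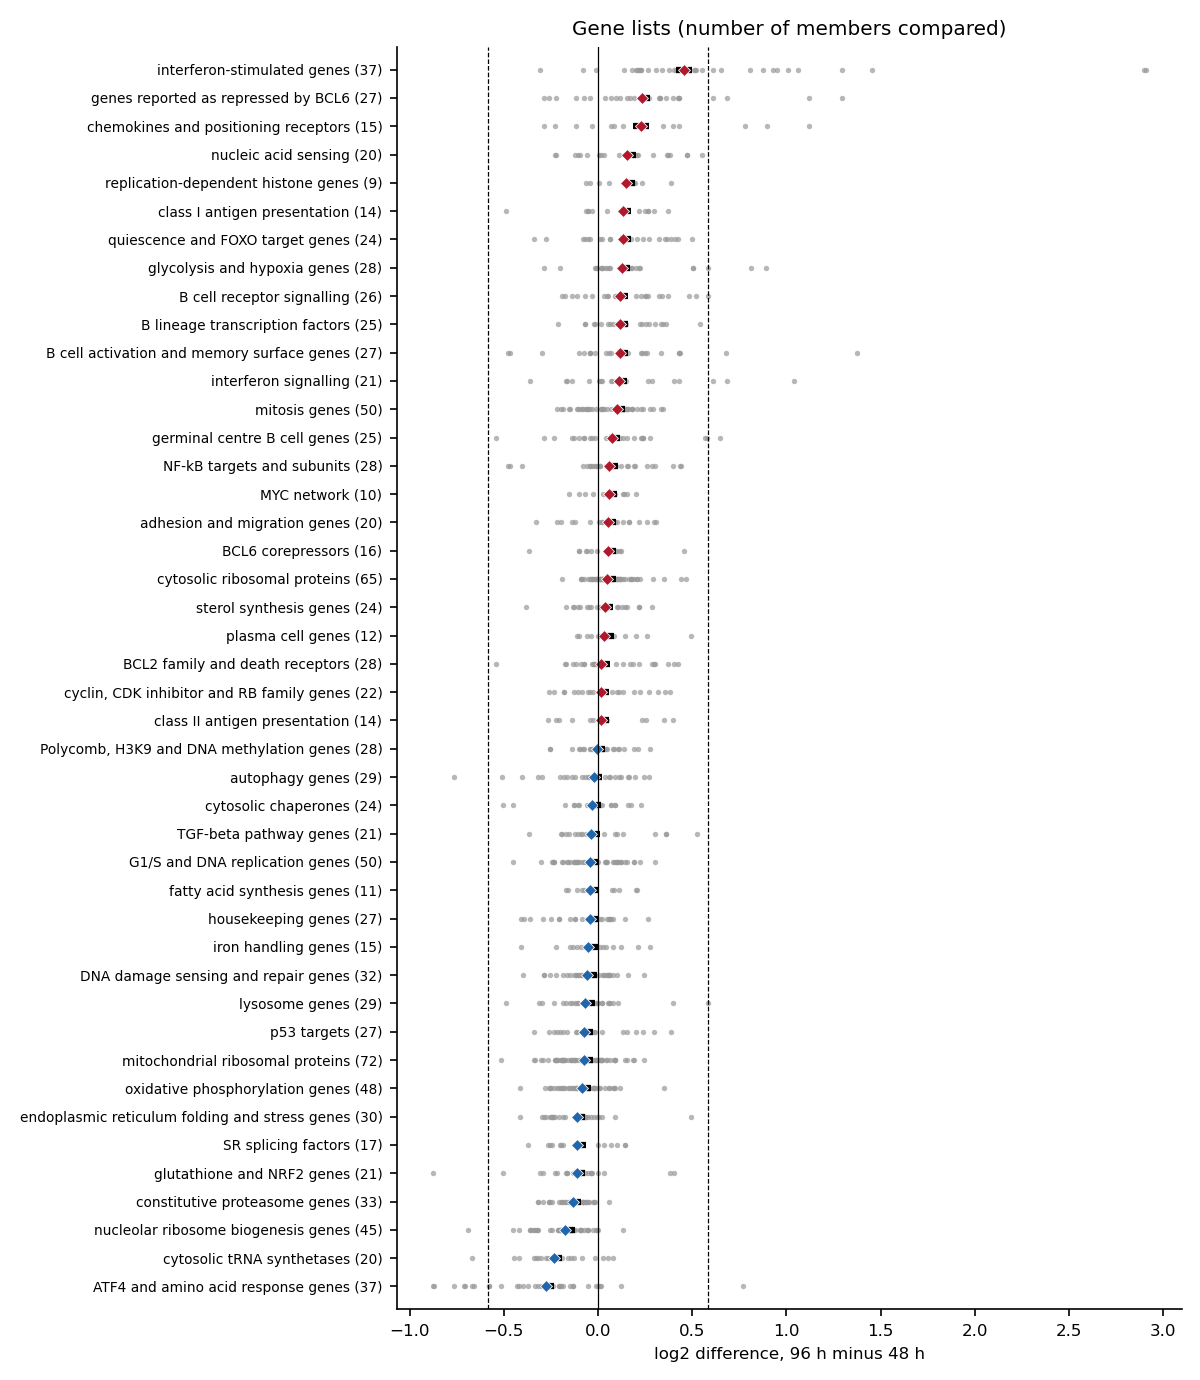
Log2 difference, 96 h minus 48 h, of the members of each gene list (dots), with the list median (diamond) and, as a black bar, the range of that median over the other scalings and the second table. The dashed lines mark 1.5-fold. The interferon-stimulated list has its median at 0.46 and the ATF4 list at -0.28.

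Genes of glycolysis and hypoxia were higher at 96 h in 23 of 28 cases, with a median of 0.13 and 2 past 1.5-fold. Over all genes 44% were above 0 and 0.559% were at least 1.5-fold higher. BNIP3, a mitophagy receptor and target of hypoxia-inducible factor, was at 9.51, 9.27 and 10.16 (1.85-fold). P4HA1, a collagen prolyl hydroxylase subunit, was at 8.54, 8.01 and 8.82 (1.75-fold). Both were lower at 48 h than at 16 h, and the list median of the preceding step was -0.12. The demethylase KDM3A was at 7.16 and 7.74, and the lactate exporter SLC16A3 at 7.93 and 8.44. P4HA2 was the lowest of the list, at 7.03 and 6.74, and VEGFA and ADM differed by 0.02 each. The glycolytic enzymes GAPDH and ENO1 differed by -0.01 each. DDIT4, an inhibitor of mTORC1 that responds to hypoxia as well as to ATF4, was at 8.16, 7.99 and 8.76 (1.70-fold). PFKFB4, which sets the level of an activator of glycolysis, was picked after its values were seen. It was at 5.04 at 16 h, 4.998 at 48 h and 5.71 at 96 h. Its levels at 16 and 48 h were below the level used as a filter. The gene was 0.71 higher in the last step, or 0.51, under 1.5-fold, in the second table.

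The ATF4 and amino acid response list was lower at 96 h in most members. Of 37 genes compared, 32 were below 0, 7 were at least 1.5-fold lower and 1, DDIT4, was at least 1.5-fold higher. The shares over all genes were 55.9%, 0.568% and 0.559%. The list median was -0.28, and it lay between -0.26 and -0.23 under the other scalings and the second table. The preceding step had a median of -0.27 with 6 genes at least 1.5-fold lower, and it shares the 48 h library. Serine synthesis enzymes were lower together. PSAT1 was at 11.29, 10.91 and 10.20 (1.64-fold lower at 96 h), PHGDH at 11.31, 11.05 and 10.47, and PSPH at 9.13, 8.56 and 7.98, the last 2 just under the threshold. All 3 were also lower at 48 h than at 16 h. Asparagine synthetase, ASNS, was at 9.74, 9.56 and 8.85 (1.63-fold lower). CHAC1, which degrades glutathione, was at 8.21, 7.45 and 6.58 (1.83-fold lower), and CTH, the cystathionine-cleaving enzyme that yields cysteine, at 8.18, 7.36 and 6.70 (1.58-fold lower). CTH was -0.58, just under 1.5-fold, in the second table. CCPG1, a receptor of endoplasmic reticulum autophagy, was at 7.14, 6.50 and 5.74 (1.70-fold lower). Members that hardly differed were SHMT2 at 0.02, the amino acid transporter SLC38A2 at -0.01 and CEBPG, a partner of ATF4, at -0.05. The stress factor DDIT3 was -0.20 and the pseudokinase TRIB3 was -0.13.

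The promoters of CHAC1 and ASNS are shown because they hold the letters TGATGNAA, the core of the amino acid response element, in the same window and on either strand. They lie at chr15:40953221-40953520 (plus strand) and chr7:97872359-97872658 (minus), on GRCh38.p14 from RefSeq, with the match in capitals. In CHAC1 the match is on the opposite strand.
CHAC1: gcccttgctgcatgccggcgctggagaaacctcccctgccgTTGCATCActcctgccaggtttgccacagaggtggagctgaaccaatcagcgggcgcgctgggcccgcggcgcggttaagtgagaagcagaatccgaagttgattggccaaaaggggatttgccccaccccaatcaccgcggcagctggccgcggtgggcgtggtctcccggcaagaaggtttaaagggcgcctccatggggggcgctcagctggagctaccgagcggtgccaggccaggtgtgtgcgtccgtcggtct
ASNS: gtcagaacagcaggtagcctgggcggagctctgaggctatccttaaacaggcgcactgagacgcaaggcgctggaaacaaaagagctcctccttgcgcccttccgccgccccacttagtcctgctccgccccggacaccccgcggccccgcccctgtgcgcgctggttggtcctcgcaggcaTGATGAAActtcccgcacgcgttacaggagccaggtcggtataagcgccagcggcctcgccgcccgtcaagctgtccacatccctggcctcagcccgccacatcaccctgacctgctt

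The matches begin 209 and 68 bases before the gene starts. They were 2 of 41 promoters of lower genes, 4.88%, against 0 of 46 of higher genes. Of genes compared 1.65% held the letters, and of all 27305 promoters 3.67%, so the share of lower genes rests on few promoters. This motif was also chosen after values were seen. In the whole ATF4 list 4 of 31 held the letters, 12.9%, and in the list of cytosolic tRNA synthetases 6 of 16. The windows of PSAT1, WARS1 and CTH did not hold them.

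The cytosolic tRNA synthetases, which charge tRNAs with amino acids, were below 0 in 17 of 20 cases with a median of -0.23, against -0.04 in the preceding step. Over all genes 55.9% were below 0, 0.568% were at least 1.5-fold lower and the median was -0.03. WARS1, also inducible by interferon gamma, was past the threshold, at 9.62, 9.79 and 9.12 (1.59-fold lower). MARS1 was at 10.09 and 9.64 and GARS1, a member of both lists, at 11.48 and 11.06, while VARS1 was 0.08 higher. In the glutathione and NRF2 list 18 of 21 were below 0, with SLC7A11 past the threshold and a median of -0.11. The glutathione synthesis subunits GCLM and GCLC were at -0.50 and -0.31. Endoplasmic reticulum folding genes were below 0 in 26 of 30 cases, with a median of -0.11 and none past 1.5-fold. The chaperone HSPA5 was the lowest, at 11.17 and 10.75, and DERL3, an endoplasmic reticulum degradation factor of plasma cells, was the highest, at 5.63 and 6.12.

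Nucleolar genes of ribosome biogenesis were below 0 in 44 of 45 cases, with a median of -0.17 that lay between -0.17 and -0.12 under the other scalings and the second table. UTP20, a component of the small subunit processome, was the member past 1.5-fold, at 7.85, 7.92 and 7.23. UTP15 was at 9.05 and 8.60 and the assembly factor MRTO4 at 9.19 and 8.78. UBTF, a transcription factor of RNA polymerase I, was the exception at 0.13. The proteins of the cytosolic ribosome were instead above 0 in 48 of 65 cases, with a median of 0.05, RPS29 being highest at 9.39 and 9.86. Mitochondrial ribosomal proteins were below 0 in 54 of 72 cases and oxidative phosphorylation genes in 38 of 48, each with a median of -0.08. Under the other scalings and the second table these medians lay between -0.07 and -0.03 and between -0.08 and -0.04. Over all genes the median was -0.03 in the main values, 55.9% were below 0, 44% above 0 and 0.568% at least 1.5-fold lower. In the constitutive proteasome 32 of 33 genes were below 0 with a median of -0.13, after a median of -0.22 in the preceding step. PSMD1 and PSMD11, subunits of its regulatory particle, were both -0.32, and PSMD5, an assembly chaperone, was 0.06.

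Small nucleolar RNAs of the C/D type, which guide methylation of ribosomal RNA, were lower as well. Of 49 compared, 45 were below 0, 7 were at least 1.5-fold lower and none was higher by as much, with a median of -0.32, or -0.21 after correction for genomic span. Over all genes 55.9% were below 0 and 0.568% were at least 1.5-fold lower. In the second table SNORD1A was under the threshold at -0.51. The C/D family was grouped after its values were seen. SNORD14E was the lowest of all genes compared, at 7.42, 7.69 and 6.24, or 2.73-fold lower at 96 h. SNORD14C was at 9.13, 9.16 and 8.45. Both lie in introns of HSPA8, whose own level was 13.51, 13.32 and 13.38. SNORD38B was at 5.95, 6.46 and 5.51 and SNORD50B was at 8.07 at 16 h and 7.13 at 96 h, -0.87 in the last step. In the preceding step the family had a median of 0.20. The H/ACA type, which guides pseudouridylation, had 26 of 41 below 0, 2 past 1.5-fold (SNORA74A and SNORA7B) and a median of -0.08, near 0 after the span correction. NUFIP1, an assembly factor of C/D particles that was picked after its values were seen, was at 8.68, 8.83 and 8.20 (1.55-fold lower). Whether short transcripts were recovered alike in the 2 libraries was not tested.

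**Figure D4:**
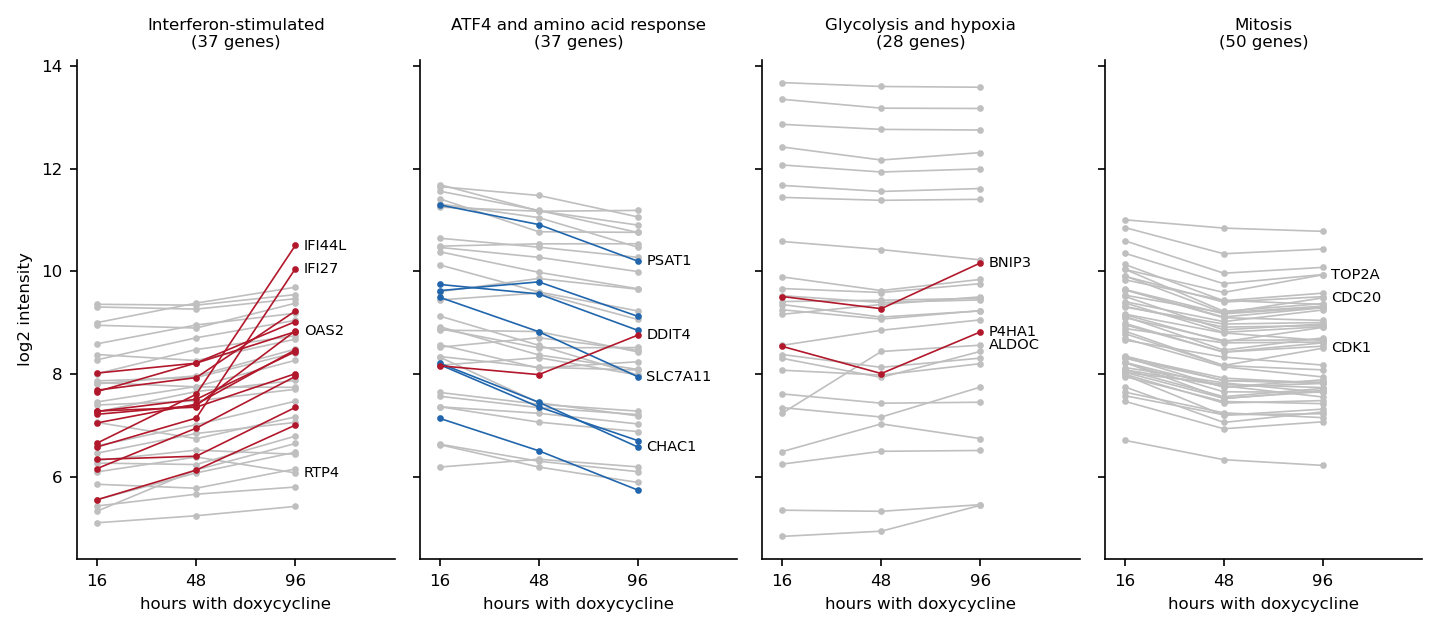
Log2 intensity in the libraries labelled 16, 48 and 96 h for members of 4 lists, 1 line per gene, with the times spaced evenly. Red and blue lines are genes at least 1.5-fold higher or lower at 96 h than at 48 h. IFI44L and IFI27 reach 10.50 and 10.05, SLC7A11, CHAC1 and PSAT1 are lower at each later time, and P4HA1, BNIP3, CDK1, CDC20 and TOP2A are lowest at 48 h.

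Cell cycle genes differed little in the last step, in contrast to their values in the step before. Over all genes 44% were above 0 and 55.9% below 0 in the last step. Mitosis genes had a median of 0.10 over 50, with 33 above 0 and none past 1.5-fold, whereas 48 h against 16 h they had a median of -0.51 with 12 at least 1.5-fold lower. The difference between the steps was not tested, and they share the 48 h library. CDK1, the mitotic kinase, was at 8.84, 8.17 and 8.50, and CDC20, which activates the anaphase-promoting complex, at 9.91, 9.19 and 9.48. TOP2A was at 10.04, 9.59 and 9.93. These 3 were lowest at 48 h. For 50 genes of DNA replication the median was -0.04, turning to about 0.00 with another scaling, with 31 below 0, after -0.30 in the preceding step. PRIM1, the DNA primase subunit, continued lower, at 10.02 and 9.45 and then -0.45 in the last step. Genes of quiescence and FOXO targets were above 0 in 18 of 24 cases with a median of 0.13. Among them PIK3IP1, an inhibitor of phosphoinositide kinase, was at 7.36, 7.85 and 8.35 and BTG1, an antiproliferative factor, at 9.86, 9.44 and 9.87. The MYC network genes had a median of 0.06 over 10.

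In each of the following lists no gene was past 1.5-fold. Sterol synthesis genes had a median of 0.03 and fatty acid synthesis genes one of -0.04. The BCL2 family and death receptor list had a median of 0.02, with BCL2, the survival factor, at 6.19 and 6.62 and the death-promoting BIK at 6.35 and 5.81. NF-kB targets and subunits had a median of 0.06, p53 targets one of -0.07 and DNA repair genes one of -0.06. The chaperone list had a median of -0.03, but HSPH1 and DNAJB1 were -0.51 and -0.45. Among iron genes, TFRC, the transferrin receptor, was at 10.61 and 10.20 with a list median of -0.06. Medians were 0.15 for 9 replication-dependent histone genes, 0.05 for adhesion genes, 0.02 for cyclins with their inhibitors and -0.01 for Polycomb and DNA methylation genes. The 27 housekeeping genes had a median of -0.04 with none past 1.5-fold.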

How the data were processed

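RNA of clone AB7 was measured on 1-colour arrays, 4 libraries in all and 1 per time. Per the labels' protocols, the RNA was amplified and copied to sense-strand cDNA, which was biotin-labelled. Log2 intensity was deposited by the authors in 2 tables. The log2 scale was read from the values, 2.39 to 14.14 in the first table and 4.46 to 14.11 in the second. For normalization, software and build, a statement was not given in the sources used here. Replicate numbers only name libraries, and nothing says that they came from separate cultures. Medians of all probe sets were 5.27 at 48 h and 5.28 at 96 h. Arrays give no depth, and their number limits the precision.

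The first table gave every main value. Symbols were updated through RefSeq (GRCh38.p14), by accession for 17014 probe sets, current symbol for 843 and older symbol for 836, and 1244 were kept. In all, 3195 symbols were updated. Of 621 genes with several probe sets the brightest was taken. Genes at or above the 40th percentile of the mean of both libraries were compared. The 7635 others included 23 at least 1.5-fold higher and 16 lower. Among them, KRT19 (4.76 and 5.53) was the listed gene past this fold. The deposited symbol of SNORD14E is an older locus name. Some items are not reported here.

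The 44 gene lists, 6 marker lists and members were chosen with earlier results of these data known. Named were BCL6, the 15 largest differences per direction without small RNAs, antigen receptor segments and unnamed loci, list members past 1.5-fold and up to 4 further members per list. Members named beyond this rule, motifs and families were chosen after values were seen. Alternatives were the second table, median centring, quantile scaling, loess (span 0.3) on level and on genomic span, other filters, the probe set mean and other folds. Python 3.11.15, pandas 2.3.3, numpy 2.4.6, scipy 1.17.1 and statsmodels 0.14.6 were used, and the scripts were tested on simulated data.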

Additional observations from a re-analysis of the deposited data

How the results depend on the processing

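No paired analysis was possible because each time has 1 library, so that no replicate could be left out either. The direction was kept by all 129 genes under every alternative in which they were compared. All alternatives use the same 2 libraries, and these genes differed by at least 1.5-fold, so few settings could have changed a sign. The second table gave 38 genes at least 1.5-fold higher and 31 lower. A filter at the 60th percentile, which compares fewer genes (7635), gave 39 and 35. At 1.3-fold there were 338 higher and 399 lower, and at 2-fold 10 and 2, with 83.3% higher. After correction for genomic span 42 genes were lower and 61.5% of those past 1.5-fold were higher. Median centring gave 63.4% higher. The counts stayed within 1.5 times under the other alternatives, from 49 lower with median centring to 87 higher without a filter. The share of higher genes was 52.3% with loess on level and 55.1% in the second table. Of the 64 higher and 65 lower genes, 38 and 31 were past 1.5-fold in the second table. The span correction covered 10989 genes with a span, among them 57 higher and 57 lower genes, of which 56 and 42 remained past it. The median span was 16148 bases for higher genes, 29764 for lower genes and 25894 for all. Its part in the split was not tested. The medians of the lists of DNA replication, chaperones, autophagy, Polycomb and TGF-beta genes changed sign with a scaling, as did those of the T cell, erythroid, and fibroblast and epithelium markers and of H/ACA, Cajal body and ZNF genes, each moving by less than 0.1.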

Other observations

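TGF-beta pathway genes had a median of -0.04 over 21, with the signal transducer SMAD3 at 6.84, 6.93 and 7.46 at 16, 48 and 96 h and the ubiquitin ligase SMURF2 at 7.31, 7.20 and 6.83. The inhibitors of differentiation went different ways in the last step, ID2 being 0.36 higher, ID3 0.30 higher and ID1 -0.19. Lysosome genes had a median of -0.07 over 29, with the protease CTSS at 9.33 and 9.73. The autophagy list had a median of -0.02 over 29, with 18 below 0, against 55.9% of all genes. In it ATG14 was at 7.56 and 7.04. ATG2B was at 8.47 and 8.06, or -0.41, by the brighter of its 2 probe sets and -0.33 by their mean. Of 17 SR splicing factors and their kinases, the median was -0.11, with CLK1 at 8.21 and 7.84.

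Among zinc finger genes of the ZNF series 181 of 294 were below 0 with a median of -0.04, which turned to 0.00 with median centring. Among solute carriers 129 of 209 were below 0 with a median of -0.07. Below 0 lay 55.9% of all genes, so neither family is a result of its own. DNM1P46 and LOC441734 had identical values, 4.84 and 5.61, and count as 2 of the 64 higher genes.

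Probe sets outside the single-symbol rule also differed. Above the filter level, 69 of 1206 probe sets without a symbol were at least 1.5-fold higher and 17 lower, with a median of 0.10. Of 2635 probe sets found in the first table alone, 97 were higher and 235 lower by as much. Of 1365 with several symbols, 7 were higher and 12 lower. For comparison, of 11924 probe sets with 1 symbol above that level, 68 were higher and 70 lower. Probe sets without a symbol and those of the first table alone thus passed the threshold more often. Why they did, and whether a technical difference between the 2 libraries had a part, was not tested.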
